A study of Mus musculus with 9 samples.

Results

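The interleukins and their receptors were examined in mandibular RNA from 6-month-old male C57BL/6 mice. They were taken as every row of the count table whose gene symbol begins with Il followed by a digit, which gave 84 of 27179 genes. By role, 37 encode ligands, 36 receptor subunits, 6 antagonists, decoy receptors or binding proteins, and 5 other products such as the antisense transcript Il1bos. The groups were 5 wild-type (WT) controls and 4 mice labelled FcγRIIB-/-, a deletion of the inhibitory Fc receptor for IgG on the C57BL/6 background that serves as a lupus model, and the labels name no treatment in either group. Each library held poly(A) RNA from a whole mandible with its teeth, so bone, marrow, tooth, muscle and oral epithelium were measured together. In such bulk RNA, fewer cells of a type and less RNA per cell cannot be told apart. Counts were scaled to the normalized library size (CPM).

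Interleukins are secreted messengers between immune, epithelial and bone cells. Most act through paired receptor chains: the interleukin-1 family through receptors that recruit Myd88 and Irak kinases, the interleukin-6 family through the shared chain Il6st (gp130) and Jak-Stat signalling, and many lymphocyte cytokines through the common gamma chain Il2rg. In bone, Il1, Il6 and Il17 are known to promote osteoclast formation, partly by inducing Rankl on osteoblasts, whereas Il34 is an alternative ligand of Csf1r, the receptor that osteoclast precursors need to survive.

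The libraries held between 21453880 and 28991631 counts, and the interleukin genes took 0.10% to 0.12% of them in WT and 0.0693% to 0.106% in the libraries labelled FcγRIIB-/-. The targeted gene, Fcgr2b, was not lower in the libraries with the knockout label, at 24.0 ± 8.28 CPM (SD, n = 5) in WT and 27.8 ± 2.90 CPM (SD, n = 4) in the others. In the edgeR test described below it was not called (log2 fold change 0.21, adjusted p = 0.442). Without WT replicate 2, at 38.3 CPM, it was called higher under the knockout label (0.46, adjusted p = 0.0131). Every direction below is therefore between libraries by their labels. A pair of WT libraries stood apart. WT replicate 2 had a summed level of 8 T cell markers of 59.3 CPM against 11.3 to 21.8 CPM in the other WT libraries, and WT replicate 5 had a summed level of 12 keratinocyte markers of 23273 CPM against 6289 to 12747 CPM. Marker lists also differed between the groups. The neutrophil sum was 1361 to 3836 CPM in WT and 183 to 523 CPM in the libraries labelled FcγRIIB-/-, the monocyte and macrophage sum 541 to 1075 and 309 to 413 CPM, the B cell sum 46.7 to 112 and 14.0 to 33.1 CPM, the osteoclast sum 855 to 1217 and 275 to 520 CPM, and the erythroid sum 1822 to 2162 and 110 to 489 CPM. The skeletal muscle sum was higher with the knockout label, at 6574 to 15333 CPM in WT and 15782 to 27187 CPM in the others, and so was the odontoblast and ameloblast sum, at 10709 to 29033 and 31797 to 54096 CPM. The osteoblast and osteocyte sum, which marks the labelled tissue, overlapped between the groups, at 27636 to 43194 and 29284 to 40584 CPM, but 4 of its 9 markers (Mepe, Sost, Sp7 and Ibsp) were lower and none higher, with log2 fold changes down to -4.46 in Mepe. No marker on these lists was at 0 in all 4 libraries labelled FcγRIIB-/-.

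Of the 84 genes, 54 had enough counts to be tested, and 21 of them were lower and 2 higher under the FcγRIIB-/- label, at an adjusted p below 0.05 (quasi-likelihood test of edgeR with Benjamini-Hochberg adjustment). Across the 16329 genes tested, 19.3% were lower and 14.0% higher (33.3% in either direction), against 38.9% and 3.70% of the interleukin genes tested. Ligands and receptors leaned the same way. Of 17 tested ligands, 7 fell and 1 rose, with a median log2 fold change of -0.66. Of 32 tested receptor subunits, 11 fell and 1 rose, with a median of -0.48, and of 5 tested antagonists, decoys and binding proteins, 3 fell and none rose, with a median of -0.60. The median over all genes tested was 0.01. The values of the groups did not overlap in 21 of the 54 tested interleukin genes (38.9%), against 29.6% of all genes tested. Among called genes alone, the groups did not overlap in 20 of 23 (87.0%), close to the 81.4% of all called genes, and Il12a, Il13ra2 and Il1rap were the called interleukin genes with overlapping groups.

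**Figure D1:**
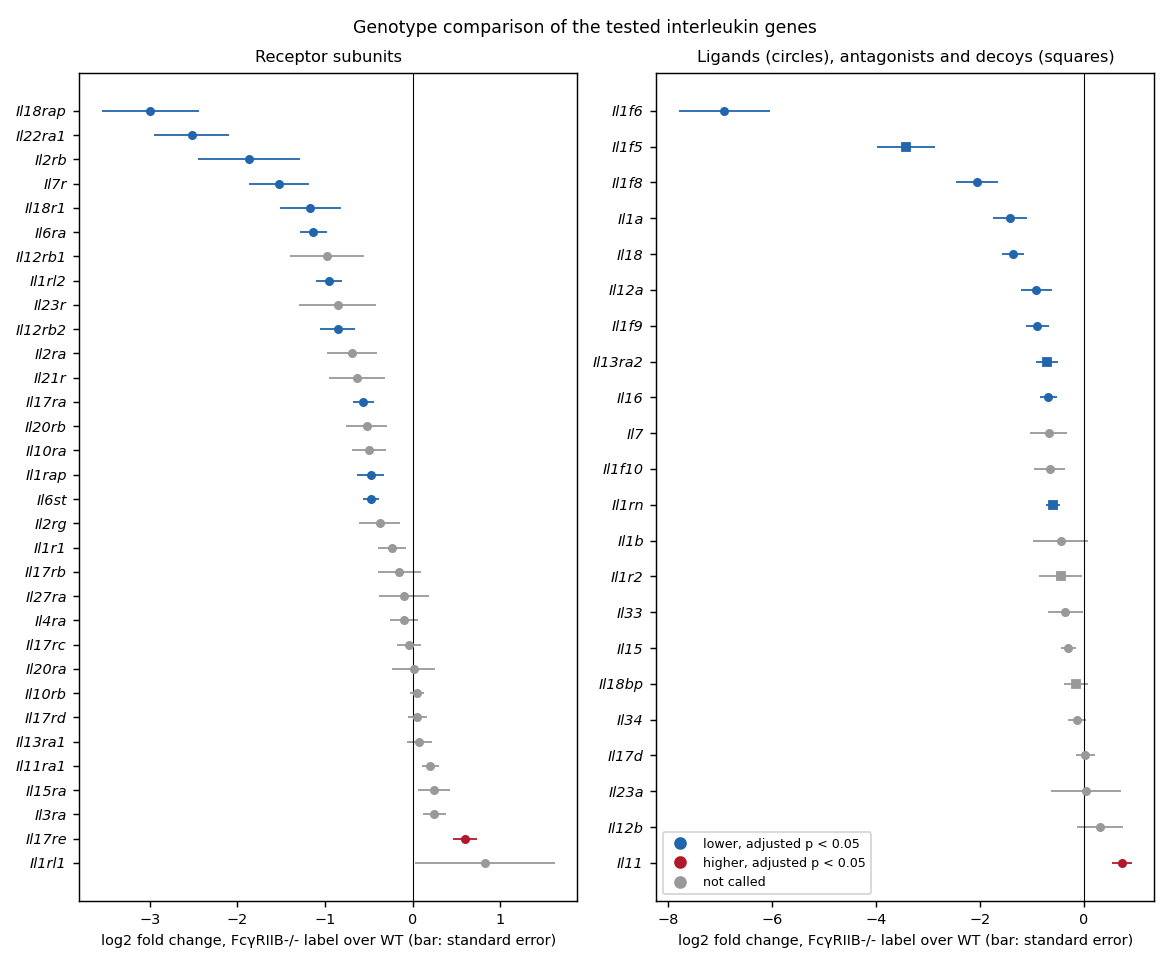
Log2 fold change of each tested interleukin gene (libraries labelled FcγRIIB-/- over WT, x axis) with its standard error, receptor subunits on the left and ligands, antagonists and decoys on the right, each panel with its own x scale. Blue marks the 21 genes called lower, red the 2 called higher (Il17re and Il11) and grey those not called, and Il1f6 lies farthest from 0, at -6.91.

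Among the 54 tested genes, the 2 with the largest falls, Il1f6 and Il1f5, belonged to the interleukin-36 branch of the interleukin-1 family, which is mainly known from epithelium. Its agonists are Il1f6, Il1f8 and Il1f9, its receptor antagonist is Il1f5, and its receptor pairs Il1rl2 with the accessory chain Il1rap. Under the FcγRIIB-/- label, all 6 of these genes were called lower, while 19.3% of all genes tested fell. The groups overlapped in Il1rap, which kept its call in 3 of the 9 fits that left out 1 library. The agonists and Il1f5 lie in 1 gene cluster on chromosome 2 of GRCm38.p6 together with Il1f10 and Il1rn, the interleukin-1 receptor antagonist, with Il1f8 at chr2:24153172-24160103, Il1f9 at chr2:24186476-24193567, Il1f6 at chr2:24215417-24225701 and Il1f5 at chr2:24276954-24282432. The 250 bases upstream of their RefSeq transcription starts, all on the plus strand, are shown for the members that fell together. Capitals mark a match to an AP-1 motif (TGANTCA) or to a STAT motif (TTCNNNGAA), searched on both strands with N as any base. The sequence table held no entry for Il1f6 and 2 starts for Il1f5.
Il1f8, chr2:24152922-24153171: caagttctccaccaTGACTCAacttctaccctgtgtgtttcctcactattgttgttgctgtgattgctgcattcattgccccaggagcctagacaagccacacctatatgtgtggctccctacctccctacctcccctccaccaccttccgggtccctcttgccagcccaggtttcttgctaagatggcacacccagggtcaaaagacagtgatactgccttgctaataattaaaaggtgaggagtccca
Il1f9, chr2:24186226-24186475: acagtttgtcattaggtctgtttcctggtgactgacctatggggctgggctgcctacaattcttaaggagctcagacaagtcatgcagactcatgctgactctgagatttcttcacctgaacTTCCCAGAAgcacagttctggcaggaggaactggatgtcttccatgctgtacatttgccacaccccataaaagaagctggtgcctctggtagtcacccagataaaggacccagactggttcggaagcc
Il1f5 start 1, chr2:24276704-24276953: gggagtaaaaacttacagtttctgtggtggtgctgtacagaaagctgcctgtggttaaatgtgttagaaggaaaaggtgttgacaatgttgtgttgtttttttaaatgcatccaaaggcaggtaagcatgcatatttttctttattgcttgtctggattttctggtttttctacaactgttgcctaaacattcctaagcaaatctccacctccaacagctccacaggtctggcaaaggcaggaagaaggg
Il1f5 start 2, chr2:24277021-24277270: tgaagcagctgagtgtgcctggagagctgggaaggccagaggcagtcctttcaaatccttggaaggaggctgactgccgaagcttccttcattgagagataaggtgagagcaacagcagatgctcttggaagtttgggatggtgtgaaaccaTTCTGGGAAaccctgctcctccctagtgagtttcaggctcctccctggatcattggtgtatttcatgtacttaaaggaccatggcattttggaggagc

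The AP-1 letters stood in the Il1f8 window, and the STAT letters in the Il1f9 window and before the second start of Il1f5. In windows of the same length before all 32851 RefSeq starts, the AP-1 letters were present in 6.75% and the STAT letters in 7.02%. A TATA box (TATAAA) or an NF-kB motif, present in 12.4% and 0.356% of all windows, was in none of the 4 windows shown. No window held more than 1 match, so no matches overlapped. These matches describe the letters and do not show binding.

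Il1f6 encodes an interleukin-36 agonist. It was at 15.8, 5.94, 11.3, 15.7 and 51.8 CPM in WT, from replicate 1 to 5, and at 0.0350, 0.323, 0.0424 and 0.304 CPM in the libraries labelled FcγRIIB-/-, from replicate 1 to 4, which rest on 1, 7, 1 and 6 counts in the latter. A wide gap separated the groups, and WT replicate 5 was far above the other WT libraries. The mean went from 20.1 ± 18.2 CPM (SD, n = 5) to 0.176 ± 0.159 CPM (SD, n = 4), a log2 fold change of -6.91 ± 0.87 (SE, adjusted p = 0.000584). Without WT replicates 2 and 5 it was -6.40 (adjusted p = 6.93e-06).

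The receptor antagonist Il1f5 put the WT libraries in the same order. It stood at 12.1, 6.54, 8.06, 12.0 and 39.2 CPM in WT and 1.79, 1.34, 1.27 and 1.37 CPM in the libraries labelled FcγRIIB-/-, again with WT replicate 5 highest and no overlap. Its log2 fold change was -3.42 ± 0.55 (SE, adjusted p = 0.00166), and -2.86 (adjusted p = 2.02e-05) without WT replicates 2 and 5. Il1f8, another agonist, was at 5.80, 3.41, 5.51, 4.96 and 14.5 CPM in WT and 1.37, 1.76, 1.99 and 1.42 CPM in the libraries labelled FcγRIIB-/-, and the log2 fold change was -2.06 ± 0.40 (SE, adjusted p = 0.00392). The third agonist, Il1f9, changed least of the 3 agonists. It was at 32.3, 21.9, 30.3, 23.8 and 50.6 CPM in WT and 17.4, 17.8, 19.3 and 13.6 CPM in the libraries labelled FcγRIIB-/-, with the groups close but separate, and its log2 fold change was -0.90 ± 0.23 (SE, adjusted p = 0.0126). Il1f10, a further member of the cluster whose product is held to be an antagonist-like cytokine, was counted among the ligands, and its value is the ligand median given above. It was at a mean of 0.628 CPM in WT and 0.399 CPM in the libraries labelled FcγRIIB-/- and was not called (log2 fold change -0.66 ± 0.30 SE, adjusted p = 0.118). Without WT replicate 2 it was called lower (-0.80, adjusted p = 0.0407).

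Both receptor genes of this branch fell as well, but the call of Il1rap rested on single libraries. Il1rl2, the interleukin-36 receptor, was at 14.0, 13.9, 12.4, 12.5 and 18.5 CPM in WT and 7.46, 8.27, 7.88 and 5.83 CPM in the libraries labelled FcγRIIB-/-, with no overlap and a log2 fold change of -0.95 ± 0.15 (SE, adjusted p = 0.00144). Il1rap, the accessory chain that it shares with the receptors for Il1 and Il33, was at 18.8, 23.6, 17.3, 19.5 and 25.9 CPM in WT and 14.4, 17.5, 17.2 and 11.1 CPM in the libraries labelled FcγRIIB-/-. There the groups overlapped, since WT replicate 3 lay below replicate 2 of the libraries labelled FcγRIIB-/-. Its log2 fold change of -0.48 ± 0.16 (SE, adjusted p = 0.0383) lost its call in 6 of the 9 fits that left out 1 library, among them those without WT replicate 2 (-0.42, adjusted p = 0.0891) and without WT replicate 5 (-0.37, adjusted p = 0.0955). Keratinocyte markers moved with these genes: 8 of 11 tested were lower and 1 higher, and their sum was 6289 to 23273 CPM in WT and 4816 to 6172 CPM in the libraries labelled FcγRIIB-/-, highest in the same WT replicate 5. The part of the keratinocyte markers in these differences was not tested.

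**Figure D2:**
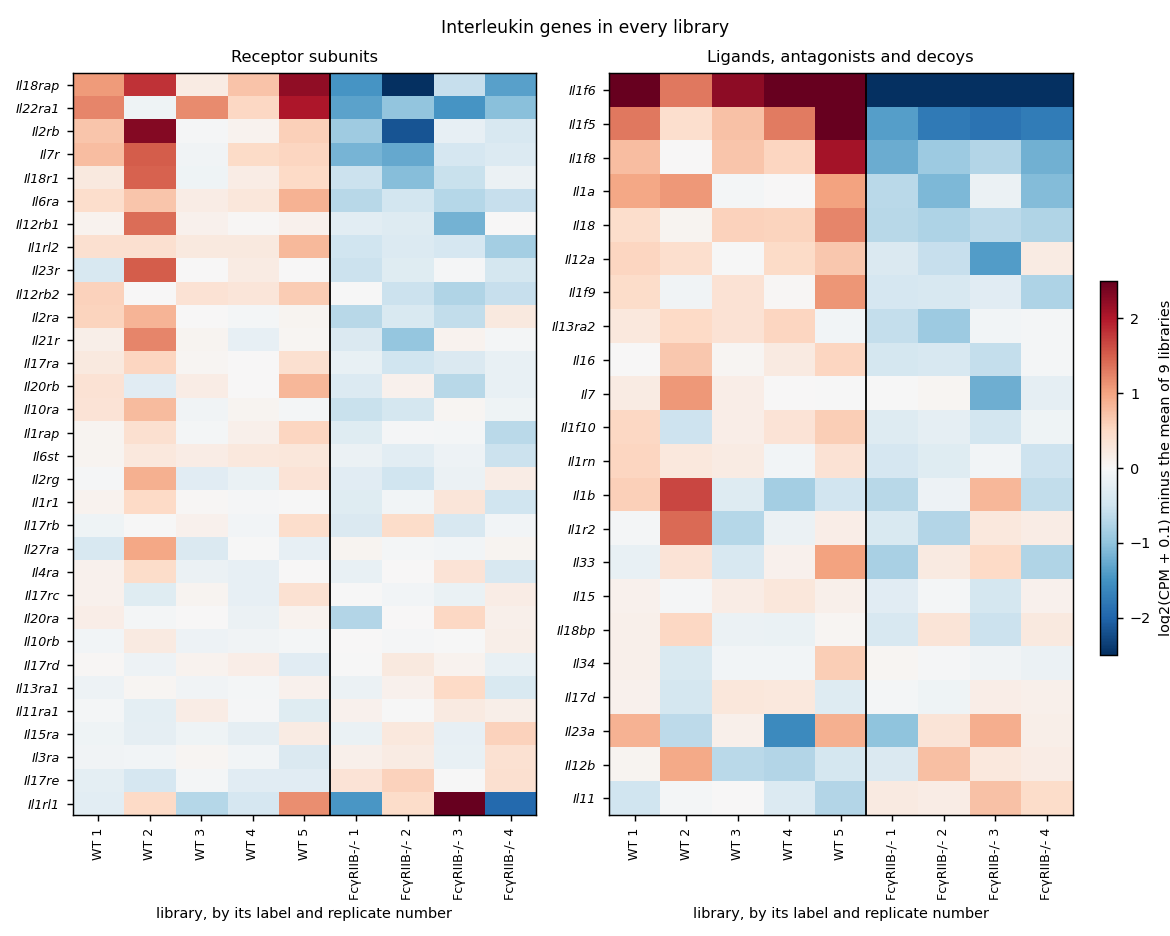
Every tested interleukin gene (rows, sorted by log2 fold change) in every library (columns, WT replicates 1 to 5 left of the black line and libraries labelled FcγRIIB-/- 1 to 4 right of it). Colour is log2(CPM + 0.1) minus the gene's mean over the 9 libraries, cut at 2.5 in either direction: Il1f6 and Il1f5 are lower in all 4 libraries labelled FcγRIIB-/-, and Il2rb, Il18r1, Il12rb1 and Il21r are highest in WT replicate 2.

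Among the classical interleukin-1 genes, the agonist Il1a fell and the agonist Il1b was not called, and the difference between them was not tested. Il1a, which is active as made and released from damaged cells, was at 6.23, 6.74, 3.05, 3.16 and 6.44 CPM in WT and 1.93, 1.39, 2.84 and 1.42 CPM in the libraries labelled FcγRIIB-/-. All 4 libraries labelled FcγRIIB-/- lay below every WT library, although the gap to WT replicates 3 and 4 was small. Its log2 fold change was -1.43 ± 0.32 (SE, adjusted p = 0.00796), and -1.10 (adjusted p = 0.0402) without WT replicates 2 and 5. Il1b, which needs caspase-1 cleavage to become active, was at 18.0, 37.7, 9.41, 6.46 and 8.39 CPM in WT and 7.25, 10.8, 21 and 7.65 CPM in the libraries labelled FcγRIIB-/-. The groups overlapped widely, with WT replicate 2 the highest library, and the log2 fold change was -0.45 ± 0.52 (SE, adjusted p = 0.535). Its sign turned to 0.16 without that library.

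The receptor antagonist Il1rn fell, whereas the signalling receptor and the decoy were not called. Il1rn, which blocks the receptor without signalling, was at 67.7, 55.6, 53.4, 44.5 and 59.5 CPM in WT and 34.6, 37.7, 44.2 and 32.1 CPM in the libraries labelled FcγRIIB-/-, with no overlap. Its log2 fold change was -0.60 ± 0.13 (SE, adjusted p = 0.00565) and -0.55 (adjusted p = 0.0262) without WT replicates 2 and 5. Il1r1, the signalling receptor, was at 51.0, 67.5, 48.7, 47.2 and 47.4 CPM in WT and 39.1, 45.7, 59.2 and 34.1 CPM in the libraries labelled FcγRIIB-/-, and the log2 fold change was -0.23 ± 0.16 (SE, adjusted p = 0.284). The decoy receptor Il1r2, which binds the ligands without signalling, was at 3.30, 9.31, 2.04, 3.08 and 3.86 CPM in WT and 2.59, 2.03, 4.15 and 3.90 CPM in the libraries labelled FcγRIIB-/-. Here WT replicate 2 alone was above all others, and the log2 fold change of -0.45 ± 0.41 (SE, adjusted p = 0.429) went to 0.06 without it.

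Within libraries, the ratio of the decoy Il1r2 to the signalling receptor Il1r1 and that of the antagonist Il1rn to the agonist Il1b did not differ beyond their spread, and no ratio to the agonist Il1a was tested. The log2 ratio of Il1r2 to Il1r1 in WT was -3.76 ± 0.61 (SD, n = 5) and -3.81 ± 0.55 (SD, n = 4) under the FcγRIIB-/- label (difference -0.05, p = 0.841 by the two-sided exact permutation test, adjusted p = 0.841 over 4 ratios). For Il1rn to Il1b it was 2.11 ± 0.94 and 1.79 ± 0.52 (difference -0.32, exact p = 0.540, adjusted p = 0.720). The smallest p this design can give is 0.00794.

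Il1rl1, the receptor for the alarmin Il33, depended on single libraries. It was at 20.1, 34.3, 14.6, 17.9 and 54.3 CPM in WT and 8.76, 33.4, 152 and 6.23 CPM in the libraries labelled FcγRIIB-/-. Replicate 3 of the libraries labelled FcγRIIB-/- alone was far above all others, and replicates 1 and 4 lay below every WT library. The log2 fold change of 0.83 ± 0.80 (SE, adjusted p = 0.449) turned to -0.81 (adjusted p = 0.330) without that replicate. Its ligand Il33 was not called, at -0.36 ± 0.34 (SE, adjusted p = 0.441).

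Il18, an interleukin-1 family cytokine that drives interferon production by T and NK cells, fell together with both chains of its receptor. Il18 was at 9.89, 7.58, 10.9, 10.6 and 17.1 CPM in WT and 4.45, 4.21, 4.53 and 4.26 CPM in the libraries labelled FcγRIIB-/-, and the libraries labelled FcγRIIB-/- lay within a narrow band below every WT library. Its mean went from 11.2 ± 3.52 CPM (SD, n = 5) to 4.36 ± 0.156 CPM (SD, n = 4), a log2 fold change of -1.36 ± 0.21 (SE, adjusted p = 0.00135). Il18rap, the signalling accessory chain, was at 2.32, 3.97, 1.23, 1.80 and 5.31 CPM in WT and 0.315, 0.0924, 0.678 and 0.355 CPM in the libraries labelled FcγRIIB-/- and had a log2 fold change of -2.99 ± 0.55 (SE, adjusted p = 0.00309), the largest among the tested receptor genes. Il18r1, the binding chain, was at 2.43, 5.82, 1.89, 2.31 and 2.93 CPM in WT and 1.37, 0.924, 1.36 and 1.82 CPM in the libraries labelled FcγRIIB-/- without overlap. Its log2 fold change of -1.17 ± 0.35 (SE, adjusted p = 0.0266) lost its call in the fits without replicate 1, 2 or 3 of the libraries labelled FcγRIIB-/-, and it was -0.67 (adjusted p = 0.0814) without WT replicates 2 and 5. The soluble binding protein Il18bp, which neutralizes Il18, was not called, at -0.15 ± 0.23 (SE, adjusted p = 0.638). Both receptor genes lie side by side in the interleukin-1 receptor cluster of chromosome 1, Il18r1 at chr1:40465552-40500854 and Il18rap at chr1:40515362-40551707, where 3 of 6 genes (Il1rl2, Il18r1 and Il18rap) fell and Il1r2, Il1r1 and Il1rl1 were not called, while 19.3% of all genes tested fell. Neutrophil markers were lower in 12 of 12, T cell markers in 1 of 8 and NK cell markers in 2 of 3 tested, and the NK cell sum was 4.28 to 10.4 CPM in WT and 1.06 to 4.46 CPM in the libraries labelled FcγRIIB-/-. Within WT, Il18 was highest in replicate 5 and lowest in replicate 2, as was the keratinocyte sum, at 23273 and 6289 CPM. Il18r1 was highest in replicate 2 and Il18rap in replicate 5. The part of these marker lists in the Il18 and receptor values was not tested.

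In the interleukin-6 family, both chains of the interleukin-6 receptor fell and the ligand Il11 rose. Il6ra, the ligand-binding alpha chain, was at 11.9, 14.2, 9.98, 10.6 and 16 CPM in WT and 5.40, 6.33, 5.30 and 5.88 CPM in the libraries labelled FcγRIIB-/-. Every library labelled FcγRIIB-/- was well below the lowest WT library, and the mean went from 12.6 ± 2.52 CPM (SD, n = 5) to 5.73 ± 0.477 CPM (SD, n = 4), a log2 fold change of -1.13 ± 0.15 (SE, adjusted p = 0.000784). It remained -0.90 (adjusted p = 0.00149) without WT replicates 2 and 5. Il6st, the signalling chain gp130 that all receptors of the family share, was at 223, 254, 241, 253 and 257 CPM in WT and 191, 177, 194 and 146 CPM in the libraries labelled FcγRIIB-/-, with a narrow gap between the groups. It fell by less, with a log2 fold change of -0.47 ± 0.09 (SE, adjusted p = 0.00419). The log2 ratio of Il6ra to Il6st in WT was -4.30 ± 0.26 (SD, n = 5) and -4.93 ± 0.27 (SD, n = 4) under the FcγRIIB-/- label (difference -0.62, two-sided exact permutation p = 0.0159, adjusted p = 0.0635 over the 4 ratios), which did not pass after adjustment.

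Il6 itself had too few counts to be tested. Its counts were 8, 28, 1, 3 and 4 in WT, and 2, 77, 65 and 5 under the FcγRIIB-/- label, each from replicate 1 onwards. Replicates 2 and 3 of the latter were therefore high and the other 2 were within the WT range, and without the filter on low counts the gene was not called (log2 fold change 2.26, adjusted p = 0.123). With a library left out it passed the filter in 2 fits, and it was called higher without replicate 1 of the libraries labelled FcγRIIB-/- (2.68, adjusted p = 0.0494) and not without replicate 4 (2.62, adjusted p = 0.0797). Il11, a family member made by osteoblasts and stromal cells, was the ligand that rose. It stood at 3.04, 4.17, 4.36, 3.41 and 2.58 CPM in WT and 5.08, 4.94, 7.29 and 5.98 CPM in the libraries labelled FcγRIIB-/-, without overlap, and the log2 fold change was 0.73 ± 0.19 (SE, adjusted p = 0.0149). It stayed called in all 9 fits that left out 1 library, with an adjusted p of up to 0.0464 without replicate 3 of the libraries labelled FcγRIIB-/-. Its receptor Il11ra1 was at 86.6, 76.0, 102, 87.7 and 72.9 CPM in WT and 97.2, 89.4, 105 and 99.4 CPM in the libraries labelled FcγRIIB-/- and was not called (0.20 ± 0.10 SE, adjusted p = 0.130). Il11ra2, a near-identical copy, had 0 to 2 counts per library, and how reads shared by both were assigned is not given in the sources used here.

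Partners of this family without an Il symbol moved in both directions. The receptor chain Lifr fell from 117 ± 11.4 CPM (SD, n = 5) to 88.3 ± 4.02 CPM (SD, n = 4), a log2 fold change of -0.41 ± 0.08 (SE, adjusted p = 0.00358), whereas Cntfr, a receptor of the ligand Clcf1, rose. Cntfr went from 24.9 ± 3.75 CPM (SD, n = 5) to 35.3 ± 6.72 CPM (SD, n = 4), a log2 fold change of 0.51 ± 0.14 (SE, adjusted p = 0.0191). Osmr, Lif, Osm and Clcf1 were not called. Skeletal muscle markers (5 of 8 higher) and odontoblast and ameloblast markers (3 of 5 higher) moved in the same direction as Cntfr. Over all genes tested 14.0% were higher, and the part of these markers in Cntfr was not tested.

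**Figure D3:**
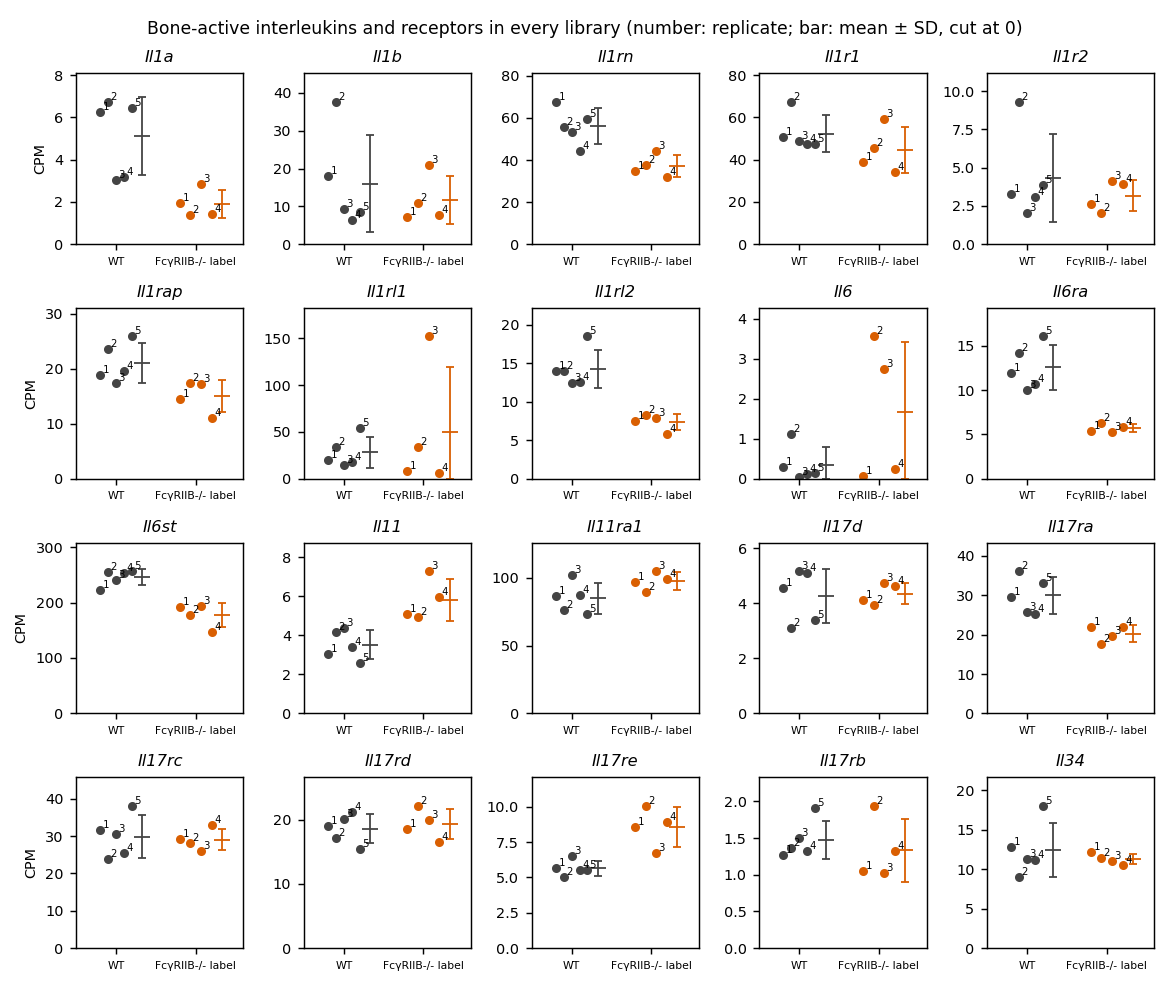
CPM of the bone-active interleukins and receptors in every library (points, numbered by replicate), WT in grey and libraries labelled FcγRIIB-/- in orange, with the mean and SD at the right of each group, the SD bar cut at 0, and each panel with its own y axis from 0. The libraries labelled FcγRIIB-/- lie below every WT library in Il1a, Il1rn, Il6ra, Il6st and Il17ra and above every WT library in Il11 and Il17re, and in Il6 and Il1rl1 single libraries are far above the rest.

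In the interleukin-17 family, the shared receptor chain Il17ra fell, Il17re rose and the other 3 receptor genes were not called. Of the 6 tested genes of the family, 33.3% were called, the same as the 33.3% over all genes tested. Il17ra, the chain common to the family's receptors, was at 29.6, 36.2, 25.9, 25.1 and 33.2 CPM in WT and 21.9, 17.7, 19.5 and 21.9 CPM in the libraries labelled FcγRIIB-/-, without overlap. It had a log2 fold change of -0.56 ± 0.12 (SE, adjusted p = 0.00609), and -0.38 (adjusted p = 0.0283) without WT replicates 2 and 5. Il17re, which pairs with Il17ra as the receptor for the epithelial cytokine Il17c, was at 5.69, 5.02, 6.52, 5.51 and 5.5 CPM in WT and 8.55, 10.1, 6.69 and 8.92 CPM in the libraries labelled FcγRIIB-/-, where the lowest library labelled FcγRIIB-/- lay just above the highest WT library. The log2 fold change of 0.60 ± 0.14 (SE, adjusted p = 0.00842) was called in all 9 fits that left out 1 library. Il17rc, the partner of Il17ra for Il17a and Il17f, lies next to Il17re on chromosome 6 (chr6:113458699-113470758 and chr6:113471455-113483163). It was at 31.7, 23.8, 30.5, 25.4 and 38.2 CPM in WT and 29.2, 28.1, 26.1 and 33.1 CPM in the libraries labelled FcγRIIB-/- and was not called (-0.04 ± 0.13 SE, adjusted p = 0.842). Il17rd and Il17rb had log2 fold changes of 0.06 ± 0.11 (SE, adjusted p = 0.732) and -0.15 ± 0.24 (SE, adjusted p = 0.661).

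Il17d was the only ligand of the family that was tested, at 4.56, 3.09, 5.17, 5.10 and 3.40 CPM in WT and 4.10, 3.93, 4.75 and 4.61 CPM in the libraries labelled FcγRIIB-/- and a log2 fold change of 0.03 ± 0.18 (SE, adjusted p = 0.926). The cytokines of T helper 17 cells were barely detected. Il17a had 3, 24, 2, 5 and 3 counts in WT and 2, 2, 15 and 5 counts in the libraries labelled FcγRIIB-/-, so that 1 library of each group (WT replicate 2 and replicate 3) held most of its reads. Il17f had 0 to 6 counts per library, Il17b 2 to 8, Il17c 0 to 4 and Il25, also known as Il17e, 0 to 7. None of these untested ligands was called in edgeR without the filter on low counts (adjusted p = 0.918 in Il17a). At this depth smaller differences could go unseen.

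Il34 was not called, whereas its receptor and the other ligand of that receptor fell. Il34, made by keratinocytes among other cells, was at 12.8, 8.99, 11.2, 11.2 and 18.0 CPM in WT and 12.1, 11.5, 11 and 10.5 CPM in the libraries labelled FcγRIIB-/-. The libraries labelled FcγRIIB-/- lay inside the WT range, and the log2 fold change of -0.14 ± 0.17 (SE, adjusted p = 0.562) turned to 0.05 without WT replicate 5. Csf1r, the receptor on monocytes, macrophages and osteoclast precursors, was at 100, 142, 101, 108 and 140 CPM in WT and 71.9, 60.2, 61.6 and 67.6 CPM in the libraries labelled FcγRIIB-/-, without overlap. This gave a log2 fold change of -0.86 ± 0.12 (SE, adjusted p = 0.00105). Csf1, the main growth factor of the osteoclast lineage, was at 63.4, 62.8, 60.0, 60.6 and 64.0 CPM in WT and 47.1, 46.9, 45.6 and 45.1 CPM in the libraries labelled FcγRIIB-/- and had a log2 fold change of -0.43 ± 0.05 (SE, adjusted p = 0.000441). The log2 ratio of Il34 to Csf1 in WT was -2.35 ± 0.35 (SD, n = 5) and -2.03 ± 0.06 (SD, n = 4) under the FcγRIIB-/- label (difference 0.32, two-sided exact permutation p = 0.111, adjusted p = 0.222). WT replicate 5 had the highest ratio, at -1.82. Without it the difference was 0.46 (adjusted p = 0.0571 by the same test), which did not pass either. Monocyte and macrophage markers, a list that includes Csf1r, were lower in 8 of 8 and osteoclast markers in 7 of 8, and their part was not tested.

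Among the lymphocyte cytokine receptors, 7 genes were tested for the common gamma chain and its partner chains, of which 2 fell and none rose. The 28.6% called lay near the 33.3% over all genes tested. Il7r, which lymphoid progenitors and T cells need, was at 6.52, 10.8, 3.51, 5.29 and 5.5 CPM in WT and 1.61, 1.48, 2.80 and 2.94 CPM in the libraries labelled FcγRIIB-/-, and WT replicate 2 was the highest. The groups did not overlap, and the log2 fold change was -1.52 ± 0.34 (SE, adjusted p = 0.00715). Il2rb, shared by the receptors for Il2 and Il15 and abundant on NK and T cells, was at 2.28, 7.14, 1.35, 1.47 and 2.15 CPM in WT and 0.701, 0.231, 1.19 and 1.01 CPM in the libraries labelled FcγRIIB-/-, with WT replicate 2 far above the rest. The log2 fold change was -1.87 ± 0.58 (SE, adjusted p = 0.0316), -1.19 (adjusted p = 0.0440) without that library and -1.10 (adjusted p = 0.0884) without WT replicates 2 and 5, and it also lost its call without replicate 1, 2 or 4 of the libraries labelled FcγRIIB-/-. Il2rg, the common chain itself, was not called (-0.38 ± 0.24 SE, adjusted p = 0.247), nor were Il2ra, Il4ra, Il15ra and Il21r, whose log2 fold changes ran from -0.69 in Il2ra to 0.24 in Il15ra. Il9r was not tested, with 5 to 40 counts in WT and 2 to 9 in the libraries labelled FcγRIIB-/-. B cell markers were lower in 9 of 10, and the T cell sum was 8.41 to 12.0 CPM in the libraries labelled FcγRIIB-/- beside 11.3 to 59.3 CPM in WT, and their part in these receptor values was not tested.

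Of the interleukin-12 family, Il12rb2 and Il12a fell. Among its 4 tested receptor genes 25.0% were called, against 33.3% over all genes tested. Il12rb2, the signalling chain of the interleukin-12 receptor, was at 5.22, 3.49, 4.47, 4.33 and 5.47 CPM in WT and 3.43, 2.36, 2.03 and 2.28 CPM in the libraries labelled FcγRIIB-/-, with the groups barely separate. It had a log2 fold change of -0.86 ± 0.20 (SE, adjusted p = 0.00907). Il12a, the ligand subunit p35, was at 2.72, 2.49, 1.81, 2.61 and 2.97 CPM in WT and 1.40, 1.2, 0.635 and 2.13 CPM in the libraries labelled FcγRIIB-/- with overlap, and its log2 fold change of -0.91 ± 0.30 (SE, adjusted p = 0.0381) lost its call in 7 of the 9 fits that left out 1 library, for example -0.83 (adjusted p = 0.0733) without WT replicate 5. Il12rb1 did not overlap between the groups but was not called (-0.97 ± 0.42 SE, adjusted p = 0.10), and it was 1.77 CPM in WT replicate 2 against 0.624 to 0.664 CPM in the other WT libraries. Il12b, Il23a, Il23r and Il27ra were not called.

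Il22ra1, the epithelial receptor chain for Il22, fell in the interleukin-10 family. It was at 3.59, 1.36, 3.47, 2.17 and 6.25 CPM in WT and 0.526, 0.693, 0.466 and 0.659 CPM in the libraries labelled FcγRIIB-/-, with WT replicate 2 the lowest and WT replicate 5 the highest WT library and no overlap. The log2 fold change was -2.52 ± 0.43 (SE, adjusted p = 0.00214), and -2.37 (adjusted p = 0.000382) without WT replicates 2 and 5. Within WT, the keratinocyte sum was also lowest in replicate 2 and highest in replicate 5, and its part in Il22ra1 was not tested. Il10rb, the partner of Il22ra1, was among the genes with the smallest differences, at 42.5 ± 4.43 CPM (SD, n = 5) in WT and 43.9 ± 2.57 CPM (SD, n = 4) in the libraries labelled FcγRIIB-/- (log2 fold change 0.05 ± 0.08 SE, adjusted p = 0.678). Il10ra, Il20ra and Il20rb were not called. Il16, a T cell chemoattractant, was at 20.7, 33, 21.2, 24.0 and 30.1 CPM in WT and 15.2, 15.6, 13.6 and 19.9 CPM in the libraries labelled FcγRIIB-/-, and fell without overlap with a log2 fold change of -0.68 ± 0.16 (SE, adjusted p = 0.00978), and -0.43 (adjusted p = 0.0412) without WT replicates 2 and 5. Il13ra2, a decoy receptor for Il13, was at 4.17, 4.90, 4.47, 5.07 and 3.28 CPM in WT and 2.24, 1.80, 3.30 and 3.34 CPM in the libraries labelled FcγRIIB-/- with overlap, and its log2 fold change of -0.71 ± 0.22 (SE, adjusted p = 0.0290) lost its call in 5 of the 9 fits that left out 1 library. The signalling chain Il13ra1 was not called (0.08 ± 0.15 SE, adjusted p = 0.709), nor were Il3ra, Il7 and Il15.

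The remaining 30 genes were not tested, and 24 of all 84 had at most 10 counts in every library. Il20, Il3, Il9, Il31 and the accessory-protein-like gene Il1rapl2 had no count in any library, which allows up to 3 counts in each. The type 2 cytokines Il4 (0 to 2 counts), Il5 (0 to 9) and Il13 (0 to 3), the T cell growth factors Il2 (0 to 3) and Il21 (0 to 6), and Il22 (0 to 3), Il24 (0 to 6), Il19 (0 to 5), Il10 (2 to 18) and Il27 (1 to 15) had few counts in every library. Il22ra2 had 0 to 5 counts, Il1bos 1 to 7, Il4i1b 1 to 4, Il4i1 0 to 1 and Il1rapl1 0 to 3. Il1bos overlaps Il1b and Il4i1b overlaps Il4i1, and the strand setting of the counting is not given in the sources used here, so their reads cannot be told apart with certainty.

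A pair of receptor genes below the filter were called once it was removed. Il5ra, the eosinophil receptor chain for Il5, had 5, 7, 4, 1 and 16 counts in WT and 0 in each library labelled FcγRIIB-/-. A limit of 3 counts over that group is 0.0321 CPM. The pooled WT level of 0.251 CPM was 7.83 times that limit, and 5.01 times without WT replicate 5. These ratios leave out the spread between WT libraries, which ran from 0.0367 to 0.625 CPM. The adjusted p of Il5ra was 0.0181 in edgeR without the filter and 0.00228 in DESeq2. Il31ra, the receptor for the itch cytokine Il31, had 6, 9, 6, 10 and 4 counts in WT and 3, 0, 0 and 1 counts in the libraries labelled FcγRIIB-/- (adjusted p = 0.0221 in edgeR without the filter and 0.0235 in DESeq2). No list of eosinophil markers was examined. Mast cell and basophil markers were lower in 6 of 6 tested, and their part in these counts was not tested.

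Levels can be set side by side between genes only per length, as CPM per kb of merged exons, which 82 of the genes had. In WT, Il1f6 ranked first at 22.8 ± 20.6 CPM per kb (SD, n = 5), followed by Il6st at 22.1 ± 1.26, Il13ra1 at 19.8 ± 1.38, Il1f9 at 19.3 ± 6.90 and Il11ra1 at 19.0 ± 2.54. These 5 do not stand apart from each other beyond their spread between libraries, and Il17rc came next at 11.2 ± 2.13. Without WT replicate 5, Il1f6 was at 13.8 ± 5.28 CPM per kb (SD, n = 4) and ranked 5th, behind Il6st, Il11ra1, Il13ra1 and Il1f9. In the libraries labelled FcγRIIB-/-, Il11ra1 ranked first at 21.9 ± 1.44 CPM per kb (SD, n = 4), then Il13ra1 at 20.9 ± 5.57 and Il6st at 16 ± 1.98, and Il1f6 ranked 53rd at 0.2 ± 0.18. Among ligands in that group Il1f9 was highest, at 10.3 ± 1.46 CPM per kb, ahead of Il1b at 6.13 ± 3.37 and Il34 at 5.76 ± 0.347, which overlapped.

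**Figure D4:**
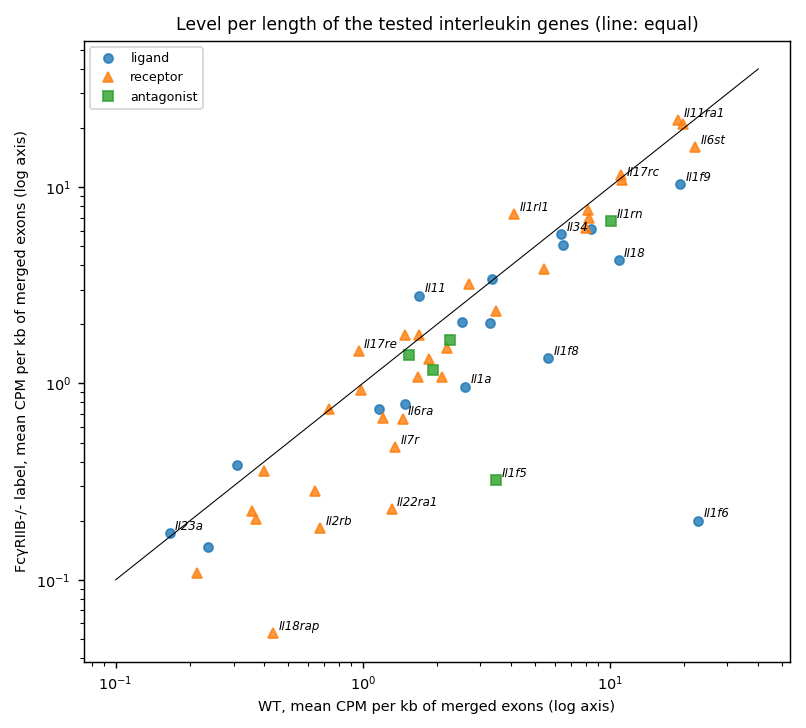
Mean level per length of the tested interleukin genes, in CPM per kb of merged exons, in WT (x axis) and in the libraries labelled FcγRIIB-/- (y axis), both on log axes, with the line of equal levels. Circles are ligands, triangles receptor subunits and squares antagonists and decoys, and Il1f6 lies farthest below the line, from 22.8 to 0.2 CPM per kb.

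Genes that carry interleukin signals inside the cell, or that pair with interleukins under another name, were counted from lists of their own. Of 19 tested partners without an Il symbol, 4 fell (Csf1r, Csf1, Lifr and Csf3r, the neutrophil growth factor receptor) and 2 rose, with a median log2 fold change of -0.28, so that the 31.6% called lay near the 33.3% over all genes tested. Csf3r had the largest difference, from 31.8 ± 12.0 CPM (SD, n = 5) to 8.02 ± 3.67 CPM (SD, n = 4). Of 25 Jak-Stat and Irak pathway genes, 8 fell (32.0%, against 19.3% of all genes tested) and 3 rose (12.0%, against 14.0%), with a median of -0.15. Among these called genes the groups did not overlap in 4, whereas they did not overlap in 81.4% of all called genes. Stat4, which acts behind the interleukin-12 receptor, fell with a log2 fold change of -1.68 ± 0.38 (SE, adjusted p = 0.00785), Nlrp3, a sensor of the inflammasome, with -1.35 ± 0.37 (SE, adjusted p = 0.0174), and Traf6, an adaptor of the interleukin-1 receptor, with -0.36 ± 0.06 (SE, adjusted p = 0.00201). Casp1, the protease that matures Il1b and Il18, rose (0.48 ± 0.10 SE, adjusted p = 0.00468). Nlrp3 was -0.83 (adjusted p = 0.0618) without WT replicates 2 and 5. Jak2, Stat5a, Stat5b and Irak2 also fell and Stat2 and Socs2 rose, by 0.24 to 0.47 on the log2 scale, and each of these 6 lost its call in at least 3 of the 9 fits that left out 1 library.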

How the data were processed

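RNA-seq was performed on whole mandibles of 5 WT mice and 4 mice labelled FcγRIIB-/-. The authors trimmed reads with Trim Galore, aligned them to mm10 with HISAT 02.1.0 and counted them per gene with featureCounts. They deposited the raw counts, not normalized. The gene annotation and strand setting are not given in the sources used here. Groups and replicate numbers came from the sample labels, and same-numbered mice are different animals. The table also held 1 column of values that matched no sample and was not used, and 1030 rows without a gene symbol were kept in the fit.

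Counts were tested in R 4.3.3 with edgeR 4.0.16 (filterByExpr with a minimum count of 10, TMM, quasi-likelihood test of genotype, Benjamini-Hochberg adjustment over all 16329 genes tested, calls below 0.05), after the script was tested on simulated data. Each standard error (SE) was derived from the F statistic of that test, as log2 fold change divided by its square root. DESeq2 1.42.0, RLE size factors, other filters and thresholds, a replicate block and leaving out libraries were alternatives. Those leaving out WT replicates 2 and 5 together, the unpaired 8 libraries, and levels without WT replicate 5, were added after the data were seen. Ratios were differences of log2 CPM (prior count of 2) and were tested with the exact permutation test. Totals of 21453880 to 28991631 counts per library set the counting precision, and limits from a count of 0 (3 counts) cover counting error only. No pair of libraries within a group agreed within sampling noise.

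Members, roles and gene lists were chosen with earlier results of these data known, and grouping by shared receptors and gene clusters followed textbook families. Named in full were the Il1, Il6, Il17 and Il34 families and every other called member without overlap, and the rest were named to account for all members. Lengths came from GENCODE vM21, coordinates and promoters from RefSeq for GRCm38.p6, where all 84 genes matched and 67 had a promoter entry. Some genes of the pathway lists are counted there and not reported by name here.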

Additional observations from a re-analysis of the deposited data

Results flagged for a closer look

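Within groups, 15 of 116 sets of CPM values had 1 library farther from the rest than Dixon's test allows at the 95% level. All 15 were high values in WT replicate 2 or 5. Chance gives about 1 of 20 among independent sets of normal values. These sets share the same libraries, so they are not independent and the rate cannot be applied to them directly. WT replicate 2 stood out in Il1r2 (9.31 CPM), Il1r1 (67.5 CPM), Il18r1 (5.82 CPM), Il2rb (7.14 CPM), Il10rb (50.3 CPM), Il7 (2.29 CPM), Il23r (2.05 CPM), Il21r (10.2 CPM), Il12rb1 (1.77 CPM) and Il27ra (6.42 CPM). This library also had the highest summed T cell markers, at 59.3 CPM against 8.41 to 21.8 CPM in the other 8 libraries.

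WT replicate 5 stood out in Il1rl2 (18.5 CPM), Il15ra (8.12 CPM), Il1f8 (14.5 CPM), Il1f6 (51.8 CPM) and Il1f5 (39.2 CPM). Its summed keratinocyte markers were the highest of the 9 libraries, at 23273 CPM against 4816 to 12747 CPM. The part of either marker list in these values was not tested.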

How the results depend on the processing

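The direction and call of all 54 tested genes were the same under DESeq2 and RLE size factors and without the filter on low counts, and 18 of the 23 calls held in all 9 fits that left out 1 library. Il18r1, Il2rb, Il1rap, Il12a and Il13ra2 lost their call in at least 1. With both WT replicates 2 and 5 left out, 19 of the 23 were called, and over all genes 2066 were lower and 1479 higher, against 3144 and 2289. At an adjusted p below 0.01 no ligand was higher, and over all genes 1763 were lower and 869 higher. With a log2 fold limit of 1, the calls were 4 ligands lower and 0 higher, 6 receptors lower and 0 higher, 1 antagonist lower, and over all genes 1069 lower and 181 higher. Leaving out 1 library gave 1 to 2 ligands and 1 to 2 receptors called higher, the gained calls being Il6 without replicate 1 of the libraries labelled FcγRIIB-/- and Il11ra1 without WT replicate 3.

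Several uncalled genes changed sign when 1 library was left out, with log2 fold changes between -0.61 and 0.0557 in Il1r2, -0.81 and 1.23 in Il1rl1, -0.20 and 0.22 in Il20ra, -0.40 and 0.38 in Il23a, -0.0155 and 0.13 in Il17rd, -0.0517 and 0.12 in Il17d, -0.90 and 0.16 in Il1b, -0.10 and 0.0860 in Il17rc, -0.24 and 0.0404 in Il4ra, -0.18 and 0.26 in Il27ra, -0.22 and 0.0519 in Il34 and -0.10 and 0.20 in Il13ra1. Il1rl1 (0.83), Il1b (-0.45) and Il1r2 (-0.45) were not near 0 with all libraries, and turned without replicate 3 of the libraries labelled FcγRIIB-/- (Il1rl1) or without WT replicate 2 (Il1b and Il1r2). The ratio of Il1r2 to Il1r1 lay between -0.28 and 0.18, being 0.18 without WT replicate 2 and 0.16 without replicate 2 of the libraries labelled FcγRIIB-/-. The cause of these changes was not tested.

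With replicate number as a block over WT replicates 1 to 4, the calls were 7 ligands, 8 receptors and 3 antagonists lower and 1 ligand and 1 receptor higher, against 10 receptors lower in the same 8 libraries unpaired. Il18r1, Il2rb and Il1rap lost their call there, and Il17d (-0.0035), Il17rc (0.0903) and Il34 (0.0590) changed sign. The numbers do not pair the mice: deviations of same-numbered libraries correlated between -0.114 and 0.0969, and 1 of 4 WT libraries correlated best with its own number. With 4 pairs, the smallest sign-flip p for a ratio is 0.125.

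Depth limits the low ligands: a difference in Il17a or the type 2 cytokines rests on a few counts per library. The difference in Il6 instead rests on replicates 2 and 3 of the libraries labelled FcγRIIB-/-. They held 77 and 65 counts, against 2 and 5 in replicates 1 and 4.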
